A study of Mus musculus with 65 samples.

Results

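Tll1, Clic1, Usp28, Prune2, Peak1 and Lzts2 were 6 of the 15469 genes in the deposited RNA table of mouse cerebellum. They were chosen by their RNA in the same libraries described here, because the loss of MEF2A and MEF2D together lowered each one further than the loss of either alone. Their RNA values are therefore a description: counts of calls among them stand beside the share of all genes, and nothing is read from them. The MEF2 peaks and the histone acetylation at each gene were not used in that choice. By the same RNA values, the description "lower only when both are lost" held for Tll1, Prune2 and Clic1. Usp28, Peak1 and Lzts2 were already lower in the MEF2D single knockout, and Peak1 also in the MEF2A single knockout, in the sense that no knockout library reached a Control.

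MEF2A and MEF2D are transcription factors of the MADS box family that bind the same AT-rich DNA element and are both abundant in the granule neurons of the cerebellum, where the family is known for its part in dendrite and synapse development and in responses to neuronal activity. They recruit coactivators with acetyltransferase activity or class IIa histone deacetylases. Acetylation of lysine 27 on histone H3 (H3K27ac) marks active enhancers and promoters, and paralogous factors that share an element can each act where the other is missing.

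Whole cerebellum of female C57BL/6 mice was compared in 3 lines, each with conditional knockouts (cKO) and Controls: Mef2a targeted (MEF2A), Mef2d targeted (MEF2D), and both targeted (MEF2AD). RNA came from mice at postnatal day 22, with 4 libraries in each of the 6 groups, and H3K27ac ChIP-seq had 3 libraries in each group. No age is recorded here for the ChIP-seq libraries. The alleles, the Cre driver, the genotype of the Controls beyond that name, and the cells that lost each gene are unstated in the labels. RNA sample titles carry the word Rotarod while the deposited table is named baseline, and neither says whether these mice were run on a rotarod. In bulk tissue, fewer cells of a type and less RNA per cell cannot be told apart. Each library held 9178139 to 23160475 recovered RNA reads, and levels are in CPM (counts per 1000000 reads). The fewest reads behind a member in 1 library were 116 for Clic1 and 149 for Tll1, and the most 6186 for Prune2. Mef2a RNA was 93.6 ± 5.56 CPM (SD, n = 4) in MEF2AD cKO against 189 ± 5.43 in its Controls, and 87.9 ± 8.60 against 222 ± 11.2 in the MEF2A line. Mef2d was not lower in the libraries labelled MEF2D cKO (368 ± 13.2 against 323 ± 23.1 CPM) or MEF2AD cKO (371 ± 12 against 298 ± 16.8 CPM). In MEF2AD cKO it was higher (log2 0.32, SE 0.08; limma adjusted p = 0.017), and in MEF2D cKO the difference did not pass the test (limma adjusted p = 0.165). A count over a whole gene does not check a deletion of some of its exons, so these 2 labels are used as given. Mef2c, a further family member, was 43.1 ± 2.97 CPM in MEF2AD cKO and 38.4 ± 1.41 CPM in its Controls. The summed CPM of all 9 marker lists of cerebellar cell types overlapped between MEF2AD cKO and Control libraries. The Purkinje cell list (10 of 10 genes measured) was lower without overlap in MEF2A cKO (8427 to 8938 CPM against 8955 to 9879) and in MEF2D cKO (8404 to 9258 against 9337 to 9780). Its part in the single-knockout values below was not tested.

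Tll1 encodes tolloid-like 1, a secreted astacin metalloprotease that cleaves the BMP antagonist chordin and the propeptides of collagens. The gene (ENSMUSG00000053626) lies on the minus strand at chr8:64013098-64206008 in GRCm38.p6. Tll1 in MEF2AD cKO stood at 15.8, 14.1, 12.6 and 12.5 CPM, against 31.0, 33.1, 33.6 and 28.8 CPM in the Controls of that line. All 4 knockout libraries lay below all Controls, and the mean was 43.4% of the Control mean. The log2 difference was -1.15 (SE 0.09). In MEF2A cKO the libraries measured 39.6, 31.7, 35.8 and 35.1 CPM against 41.4, 29.9, 38.3 and 34.2 CPM in Controls, and in MEF2D cKO 28.2, 27.8, 27 and 24.2 CPM against 30.2, 32.9, 26.4 and 32.1 CPM. Both single knockouts overlapped their Controls, with log2 differences of -0.01 and -0.17 (SE 0.09 each).

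Clic1 encodes chloride intracellular channel 1, a protein that exists in a soluble and a membrane form. It is the shortest of the 6 genes (ENSMUSG00000007041; chr17:35050243-35058719, plus strand). The MEF2AD knockouts measured 10.7, 10.8, 9.78 and 8.95 CPM against 20.0, 16.5, 19.7 and 17.0 CPM in Controls, 55.1% of the Control mean, with a log2 difference of -0.80 (SE 0.11). It was the member with a higher level in a single knockout: 50.6, 30.7, 38.3 and 44.6 CPM in MEF2A cKO against 31.8, 22.6, 23.8 and 24 CPM in its Controls. That difference was 0.65 (log2, SE 0.11), although the lowest MEF2A cKO library lay under the highest Control; against the Control of the same number it was higher in 4 of 4 pairs. MEF2D knockouts had 30.0, 33.7, 28.6 and 30.7 CPM against 28.4, 25.7, 27.2 and 28.5 CPM (log2 0.16, SE 0.11), every knockout library above every Control. Clic1 also differed most between Controls, whose line means spanned 1.5-fold against 1.08-fold to 1.19-fold for the other members: all MEF2AD Controls (16.5 to 20.0 CPM) lay under all Controls of the other lines (22.6 to 31.8 CPM). In the authors' deposited table its MEF2AD log2 fold was -0.82 against the line's own Controls and -1.13 against the Controls of all lines. Markers of the choroid plexus, an epithelium that dissection can carry along, varied between libraries from 34.5 to 1873 summed CPM (10 of 10 genes measured, among them the relative Clic6). In MEF2AD cKO, libraries 1 and 2 had 35.3 and 1575 CPM of these markers and 10.7 and 10.8 CPM of Clic1, and the MEF2A Control with 37.3 CPM of markers had the highest Clic1 of its group. Among the MEF2AD Controls both were high together. MEF2AD Controls 1 and 3 had 1677 and 1873 CPM of markers and 20.0 and 19.7 CPM of Clic1. MEF2AD Controls 2 and 4 had 307 and 768 CPM of markers and 16.5 and 17.0 CPM of Clic1. In MEF2D cKO the library with most markers (1294 CPM) had the highest Clic1 and that with fewest (38.0 CPM) the lowest. The MEF2D Controls went the other way. MEF2D Controls 1 and 4 had 34.5 and 38.8 CPM of markers and 28.4 and 28.5 CPM of Clic1. MEF2D Controls 2 and 3 had 1456 and 1153 CPM of markers and 25.7 and 27.2 CPM of Clic1. MEF2A cKO 1 to 4 had 806, 700, 540 and 1637 CPM of markers and 50.6, 30.7, 38.3 and 44.6 CPM of Clic1. The part of these markers in the Clic1 values was not tested.

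Usp28 encodes a deubiquitinase that removes ubiquitin from MYC and from other substrates of the FBXW7 ligase and binds the DNA damage protein 53BP1. The gene (ENSMUSG00000032267; chr9:48985319-49042517, plus strand) measured 33.0, 35.2, 36.9 and 31.6 CPM in MEF2AD cKO against 65.2, 82.1, 82.0 and 67.6 CPM in Controls. This was 46.0% of the Control mean (log2 -1.09, SE 0.07). The MEF2D knockouts had 49.5, 49.8, 49.5 and 48.6 CPM against 66.1, 74.7, 65.3 and 72.4 CPM, without overlap and with a log2 difference of -0.49 (SE 0.07). The MEF2A knockouts (78.3, 65.1, 63.5 and 66.1 CPM) overlapped their Controls (80.7, 71.0, 72.1 and 76.3 CPM; log2 -0.14, SE 0.07), but lay below the Control of the same number in 4 of 4 pairs. The knockout means were 68.3 ± 6.79 CPM in MEF2A cKO, 49.3 ± 0.529 in MEF2D cKO and 34.2 ± 2.37 in MEF2AD cKO (SD, n = 4). The rule that chose the gene favours the lowest place for MEF2AD cKO, so nothing is read from this order.

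Prune2 encodes a large protein with a BCH domain that is expressed in neurons and is related to BNIP2 and Prune1. It spans chr19:16955668-17223963 on the plus strand (ENSMUSG00000039126). Its MEF2AD cKO libraries measured 184, 176, 184 and 199 CPM against 263, 276, 273 and 270.0 CPM in Controls, 68.7% of the Control mean and the smallest log2 difference of the 6 (-0.54, SE 0.05). The groups were far apart against their spread (SD 9.29 and 5.69 CPM). In MEF2A cKO the values were 294, 299.5, 296 and 312 CPM against 301, 273, 269.9 and 312 CPM, and in MEF2D cKO 272, 291, 317 and 306 CPM against 309, 326, 294 and 317 CPM. Both single knockouts overlapped their Controls, with log2 differences of 0.06 and -0.07 (SE 0.05 each).

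Peak1 encodes a pseudokinase that works as a scaffold at focal adhesions and the actin cytoskeleton. The gene (ENSMUSG00000074305; chr9:56201126-56418222, minus strand) had the largest MEF2AD difference of the 6. Its level was 54.7, 50.4, 54.7 and 58.3 CPM in the MEF2AD knockouts against 128, 144, 139 and 133 CPM in Controls, 40.1% of the Control mean (log2 -1.30, SE 0.10). In both single knockouts all 4 libraries lay below their Controls: 137, 100.1, 135 and 110.2 CPM against 174, 139, 159 and 174 CPM in the MEF2A line, and 111, 123, 93.9 and 105 CPM against 178, 180.3, 148 and 136 CPM in the MEF2D line. These differences were -0.43 and -0.56 (log2, SE 0.10 each). By absence of overlap, Peak1 was the member with lower RNA in all 3 knockouts. Its MEF2A difference did not pass the limma test over all genes. The annotated antisense gene Peak1os overlaps it and is not in the RNA table. Whether the counting used strand is not given in the sources used here, so reads of the pair cannot be told apart.

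Lzts2 encodes a leucine zipper protein that binds the microtubule-severing enzyme katanin and beta-catenin. It lies at chr19:45015176-45027115 on the plus strand (ENSMUSG00000035342) and overlaps Pdzd7. Its MEF2AD cKO libraries measured 38.9, 38.8, 43.1 and 38.0 CPM against 67.7, 65.9, 75.1 and 65.7 CPM, 57.9% of the Control mean (log2 -0.77, SE 0.07). The MEF2D knockouts had 48.7, 51.1, 46.3 and 44.2 CPM against 69.2, 60.4, 62.3 and 59.0 CPM, without overlap (log2 -0.39, SE 0.07). The MEF2A knockouts (69.6, 62.0, 59.8 and 58.3 CPM) overlapped their Controls (68.0, 75.3, 61.0 and 64.7 CPM; log2 -0.10, SE 0.07). Pdzd7, a gene of stereocilia proteins in the inner ear, was far lower, at 4.96 to 9.19 CPM over all libraries, and its MEF2AD difference (log2 -0.20, SE 0.14) did not pass the test over all genes (limma adjusted p = 0.762).

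**Figure D1:**
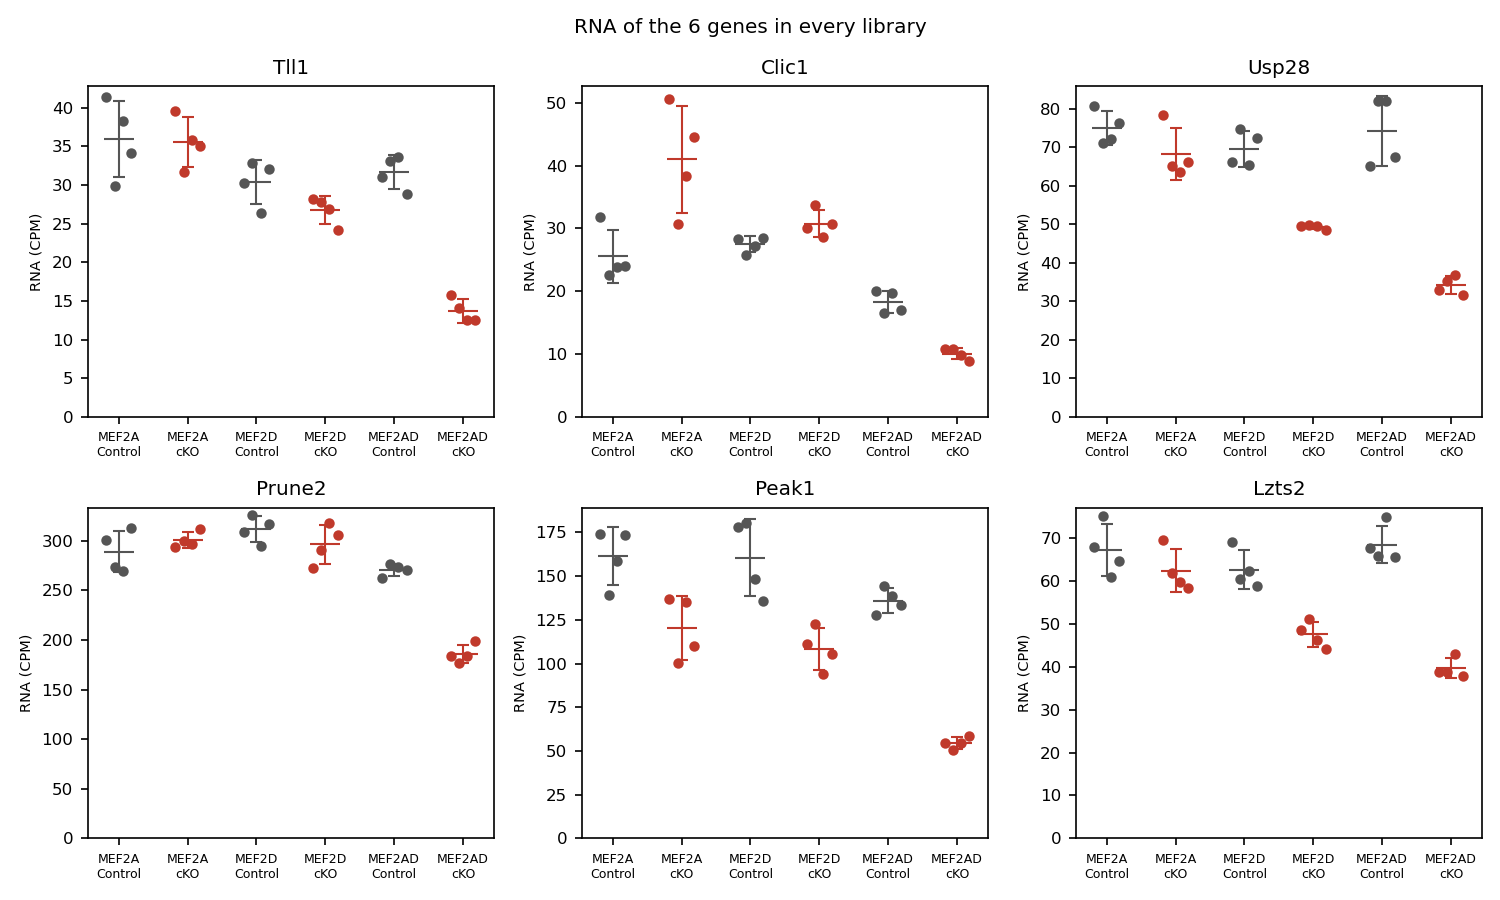
RNA of each gene in CPM (vertical axis, from 0) in the 24 libraries, by line and genotype (horizontal axis); points are libraries, and bars give the mean and SD of 4 libraries (Control grey, cKO red). In every panel the 4 MEF2AD cKO points lie below the 4 Controls of that line, and for Usp28, Peak1 and Lzts2 the MEF2D cKO points do so too.

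All 4 MEF2AD cKO libraries lay below all 4 Controls for 6 of 6 members, and for 2.88% of all genes. The count was 3 of 6 in the MEF2D line (6.53% of all genes) and 1 of 6 in the MEF2A line (1.76%). At the threshold used throughout, a Benjamini-Hochberg adjusted p of 0.05 from limma over all 15469 genes, 6 of 6 members were called lower in MEF2AD cKO (1.26% of all genes), 3 in MEF2D cKO (2.33%) and 0 in MEF2A cKO (0.129%). Clic1 was the 1 member called higher in MEF2A cKO (0.155% of all genes). Lower in MEF2AD cKO than the MEF2A effect were 6 of 6 (0.317% of all genes), and than the MEF2D effect 5 of 6 (0.084%), all but Lzts2. Since these contrasts chose the members, nothing is read from their counts. The median log2 difference of the 6 was -0.95 in MEF2AD cKO, -0.28 in MEF2D cKO and -0.06 in MEF2A cKO, where the median over all genes was 0.00 each time.

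The 6 genes differed in how far the MEF2AD value lay beyond the 2 single values added on the log2 scale. The departure from that sum was -1.61 (SE 0.20) for Clic1 and -0.97 (SE 0.16) for Tll1. It was -0.53 (SE 0.09) for Prune2 and -0.47 (SE 0.13) for Usp28. It was least for Peak1 (-0.32, SE 0.17) and Lzts2 (-0.28, SE 0.12), whose SE were largest against the value. Among the 7717 genes with a MEF2AD difference below 0, ordered by the weaker of the differences from the MEF2A and the MEF2D effect, Tll1 stood at place 7, Clic1 at 10, Peak1 at 20, Usp28 at 36, Prune2 at 72 and Lzts2 at 121. The neighbours of Lzts2 in that order, Nfkbid and Plxna4os2, had the same weaker difference of -0.38 but MEF2AD differences of -0.35 and -0.47, against -0.77 for Lzts2.

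**Figure D2:**
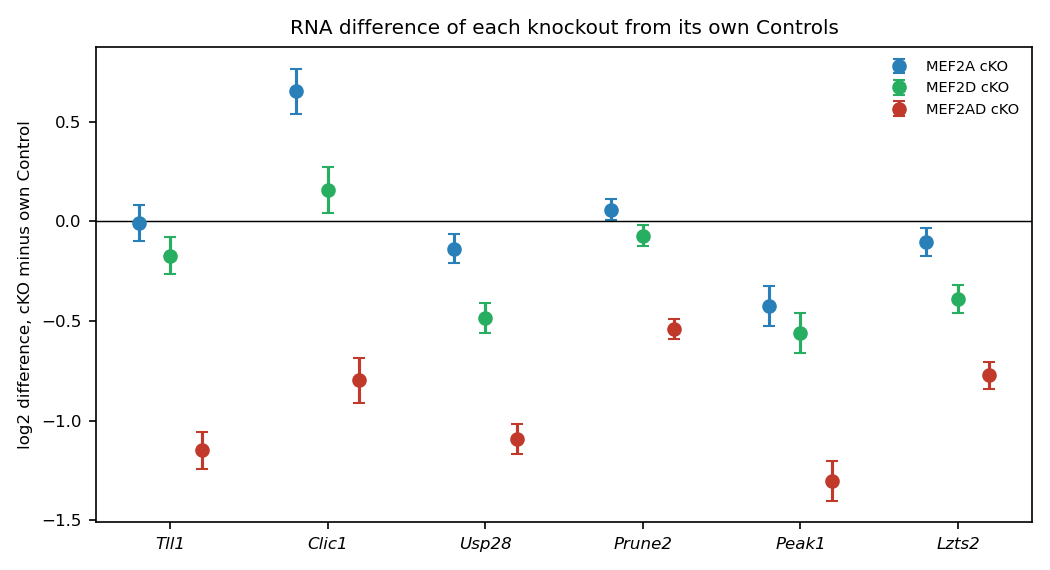
Log2 difference of RNA (vertical axis) between each knockout and its own Controls for the 6 genes (horizontal axis); points are limma estimates, bars are their SE, and colours mark the line. MEF2AD cKO is lowest for each gene, from -0.54 for Prune2 to -1.30 for Peak1, and Clic1 is at 0.65 in MEF2A cKO.

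Over the 24 libraries, each taken relative to its own line's Control mean, the members' profiles correlated with each other at Pearson r from 0.55 (Peak1 with Clic1) to 0.95 (Lzts2 with Usp28). The points share lines and libraries, and the knockouts chosen for the pattern drive these values. Among all other genes of at least 1 CPM on average, the profile most like the mean of the 6 was that of Xk, which encodes a membrane protein of the Kell blood group complex (r = 0.96). Prr16, the Src-family kinase gene Lyn, the junction protein gene Cgnl1, the ubiquitin ligase gene Rnf123 and the predicted gene Gm26857 followed with r from 0.94 to 0.92. Xk went from 60.6 to 25.4 CPM in the MEF2AD line, from 66.4 to 44.8 in the MEF2D line and from 70.1 to 61.6 in the MEF2A line (means of 4). With Spearman's correlation, 2 of these 6 genes, Xk and Prr16, were again among the top 6.

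Families and known partners of the 6 products were counted to see whether related genes moved. The 6 lists held 48 genes, of which 46 were measured: the tolloid proteases with chordins and collagens for Tll1, the CLIC family, partners and substrates of USP28, BCH domain genes for Prune2, adaptors and kinases around PEAK1, and LZTS genes with katanins and Wnt genes for Lzts2. In MEF2AD cKO limma called 0 of 46 (2.42% of all genes in either direction), edgeR 1 and DESeq2 2, and 4 had an unadjusted p under 0.05. In MEF2A cKO 0 of 46 were called by limma, edgeR or DESeq2 (0.284% of all genes), with 1 under an unadjusted 0.05. In MEF2D cKO 1 of 46 was called (4.93% of all genes). This was Bcar1, which encodes the adhesion scaffold p130Cas: it measured 174 ± 10.6 CPM against 210.1 ± 15.3 in Controls (SD, n = 4; log2 -0.27, SE 0.06; limma adjusted p = 0.00789). The call was lost without MEF2D Control 1, and its MEF2AD difference was -0.07 (SE 0.06; limma adjusted p = 0.846). Between the MEF2AD and the MEF2A effect 0 of 46 differed (0.549% of all genes; 2 under an unadjusted 0.05), and between the MEF2AD and the MEF2D effect 0 of 46 (0.103%; 1 under an unadjusted 0.05), by limma, edgeR and DESeq2 alike. The lists' median log2 differences in MEF2AD cKO ran from -0.14 for the 4 CLIC genes to 0.04 for the 8 genes of the Lzts2 list.

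The deposited peak lists held 203 MEF2A and 1388 MEF2D peaks, without values per library. By the sample titles, MEF2A ChIP-seq was made in MEF2A Control, MEF2A cKO and MEF2D cKO. MEF2D ChIP-seq was made in MEF2D Control, MEF2D cKO and MEF2A cKO. The lists have no header, and no peak is assigned here to any of these genotypes. A MEF2D peak lay in the gene or within 5000 bp of it for 4 of 6 members, against 5.54% of the 14841 genes with a position, and a MEF2A peak for 3 of 6, against 0.829%. All 3 genes with a MEF2A peak, Tll1, Peak1 and Lzts2, had a MEF2D peak over it (3 of 6, against 0.782% of genes with both). Long genes have more room for a peak, so these shares are not matched for length. In Tll1 the pair lay 53636 bp (MEF2D) and 53674 bp (MEF2A) downstream of the start of transcription (MEF2D peak chr8:64152096-64152647, MEF2A peak chr8:64152207-64152460, coordinates here and below as deposited for mm10). In Peak1 it lay 127828 and 127838 bp downstream (chr9:56290056-56290387 and chr9:56290095-56290328), also within Peak1os. In Lzts2 it lay 1320 and 1379 bp downstream of the start at 45015210 (chr19:45016219-45016842 and chr19:45016456-45016722), and upstream of a further annotated start at 45018135. Usp28 had a MEF2D peak alone, 1644 bp downstream of its start (chr9:48986837-48987221). All 4 positions are inside the gene body. The reference tables used here hold gene spans and not exons, so exon or intron is not stated.

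Clic1 and Prune2 had no peak of either list within 5000 bp. The nearest to Clic1 was a MEF2D peak 11778 bp past its end (chr17:35070497-35071007), which lies between genes and 335 bp from Ly6g6d. Past the end of Prune2 were MEF2D peaks at 14606 and 16603 bp (chr19:17238569-17238779 and chr19:17240566-17240992), for which Prune2 was the nearest gene. Within 50000 bp, 6 of 6 members had a MEF2D peak and 3 of 6 a MEF2A peak, against 12.3% and 1.85% of genes. Which gene a distant peak acts on was not tested.

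**Figure D3:**
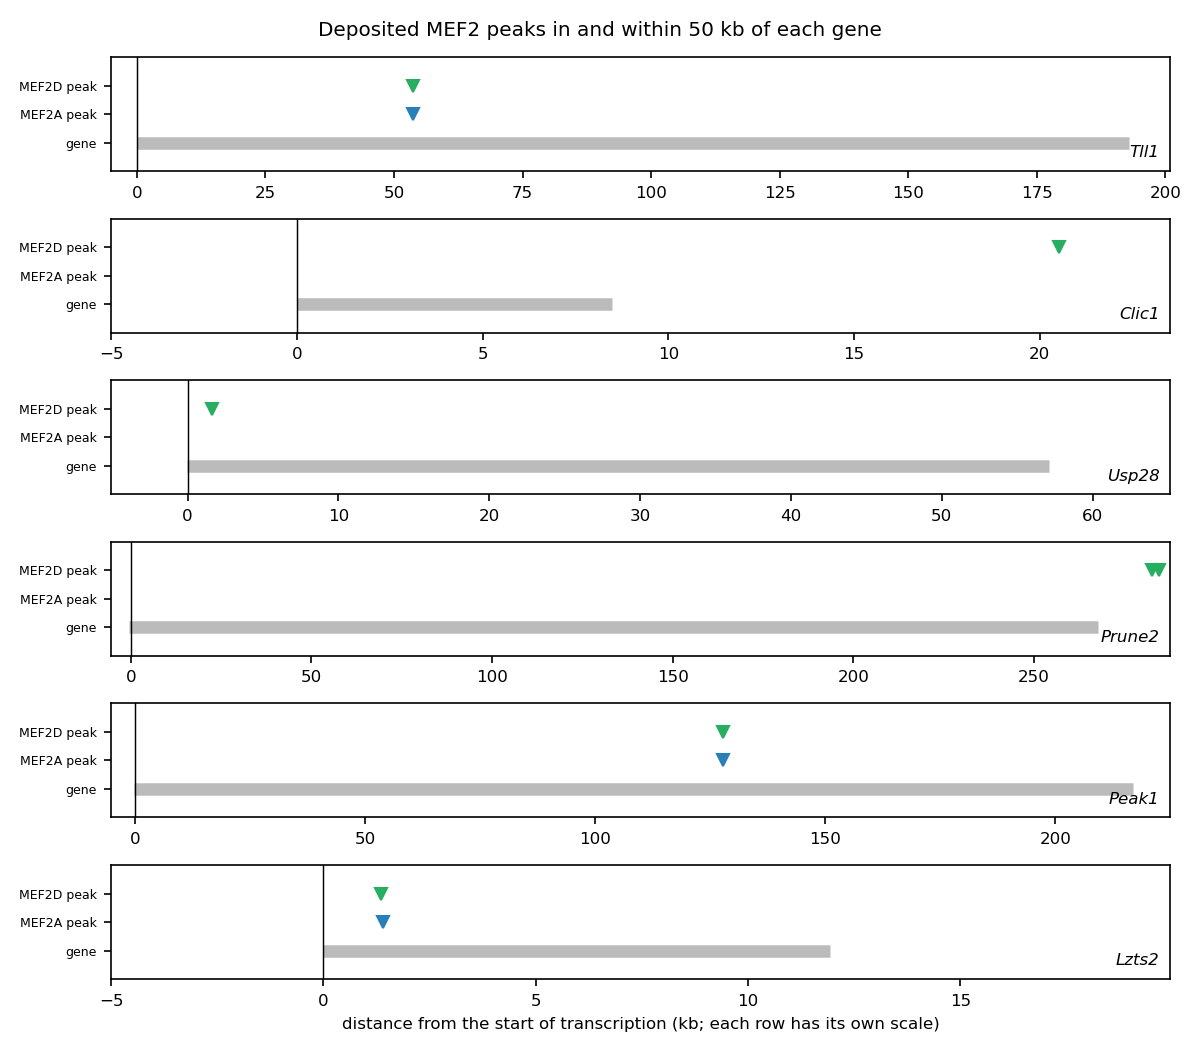
Deposited MEF2A (blue) and MEF2D (green) peaks, as triangles at their centres, within 50 kb of each gene (grey bar), by distance in kb downstream of the start of transcription; each row has its own scale. Tll1, Peak1 and Lzts2 hold both peaks at 1 place, Usp28 holds a MEF2D peak 1644 bp from its start, and the MEF2D peaks of Clic1 and Prune2 lie past the gene.

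No peak of either list overlapped the promoter window of a member, taken as 250 bases before to 50 after an annotated start (8 windows of the 6 genes, RefSeq, GRCm38.p6). Peak sequences were not read, as no genome was used here. The MEF2 consensus (searched on both strands by its usual 10-base form with ambiguity letters) occurred in 0 of the 8 windows and in 3.19% of the 32851 promoters of that length. The AP-1 consensus TGANTCA occurred in the Clic1 window and in 7.81% of promoters. The 3 windows printed are that of Tll1, the one with the closest approach to the MEF2 consensus (1 mismatch, in capitals; 26.9% of promoters come at least as close), that of Clic1 with its AP-1 match in capitals, and that of Usp28, a window near a MEF2D peak with no capitals because neither motif matched. They run 5′ to 3′ on the gene's strand.

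Tll1 promoter, chr8:64205959-64206258, minus strand: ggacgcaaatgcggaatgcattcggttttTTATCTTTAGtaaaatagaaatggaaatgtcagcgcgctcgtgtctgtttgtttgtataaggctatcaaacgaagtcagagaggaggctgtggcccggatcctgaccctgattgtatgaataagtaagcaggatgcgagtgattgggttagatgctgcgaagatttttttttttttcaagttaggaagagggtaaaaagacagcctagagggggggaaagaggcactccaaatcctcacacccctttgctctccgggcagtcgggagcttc

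Clic1 promoter, chr17:35049993-35050292, plus strand: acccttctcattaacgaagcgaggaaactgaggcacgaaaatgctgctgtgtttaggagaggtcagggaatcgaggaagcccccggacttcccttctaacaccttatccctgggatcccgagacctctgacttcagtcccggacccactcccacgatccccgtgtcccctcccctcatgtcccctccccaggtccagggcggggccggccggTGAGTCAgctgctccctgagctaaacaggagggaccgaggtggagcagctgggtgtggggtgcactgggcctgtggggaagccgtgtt

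Usp28 promoter, chr9:48985135-48985434, plus strand: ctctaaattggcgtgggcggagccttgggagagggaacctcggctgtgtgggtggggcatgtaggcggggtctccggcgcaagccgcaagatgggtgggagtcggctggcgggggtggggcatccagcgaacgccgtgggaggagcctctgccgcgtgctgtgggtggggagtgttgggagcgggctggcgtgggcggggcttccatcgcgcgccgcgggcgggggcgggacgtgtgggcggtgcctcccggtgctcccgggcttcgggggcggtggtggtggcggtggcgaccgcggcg

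The Tll1 window was the least GC-rich of the 8, with 46.3% G and C and 12 CG pairs. Usp28, Prune2 and Peak1 had 74.7%, 72.7% and 68.7% G and C and 35, 28 and 38 CG pairs, against medians of 52.7% and 7 over all promoters. A match is a description of letters and not a binding site.

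H3K27ac was counted by the authors at 1419 MEF2 sites, of which 7 lay in or within 50000 bp of a member. In the authors' deposited table the sites in Tll1, Peak1 and Lzts2 are classed as compensatory, a class of 198 sites, and those of Usp28, Prune2 and Clic1 as non-compensatory, a class of 1221. Inputs held 0 to 0.612 RPM (reads per 1000000 of the library total) at the 7 sites, against group means of 2.66 to 11.4 RPM in Controls. The share of all reads that fell in MEF2 sites was itself lower in knockouts: 0.464 to 0.482% in MEF2AD cKO against 0.620 to 0.669% in Controls, 0.514 to 0.550% against 0.648 to 0.693% in the MEF2D line, and 0.638 to 0.672% against 0.689 to 0.706% in the MEF2A line. Differences were therefore fitted with edgeR on 2 scales, relative to the other MEF2 sites (TMM) and per library total. Per library total the median difference over all sites was -0.51 in MEF2AD cKO, -0.36 in MEF2D cKO and -0.08 in MEF2A cKO (log2). By TMM it was -0.00060, -0.00026 and -0.0061. MEF2AD cKO library 3 and Control library 3 were shallow, with medians of 24 and 34 reads per site against 70 to 117 in the other 4 of that line.

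At the Usp28 site (chr9:48986837-48987221) H3K27ac was lower in both knockouts that target Mef2d. It measured 1.88, 2.14 and 0.981 RPM in MEF2AD cKO against 4.76, 5.07 and 6.33 RPM in Controls, 31.0% of the Control mean, or 37.4% without the shallow library 3. The MEF2AD difference was -0.96 (log2, SE 0.16; edgeR adjusted p = 1.68e-06) relative to other MEF2 sites and -1.47 (SE 0.17; edgeR adjusted p = 4.32e-10) per library total. MEF2D cKO measured 2.17, 3.43 and 2.77 RPM against 5.95, 4.61 and 5.55 RPM, which was -0.59 (SE 0.17; edgeR adjusted p = 0.00544) and -0.94 (SE 0.17; edgeR adjusted p = 2.06e-05). In MEF2A cKO it measured 5.10, 5.52 and 4.70 RPM against 4.96, 5.21 and 4.75 RPM, with the groups overlapping. The MEF2AD effect lay below the MEF2A effect by either scale (TMM -1.08, SE 0.23; edgeR adjusted p = 0.000122), and its difference from the MEF2D effect did not pass the test (TMM -0.38, SE 0.24; edgeR adjusted p = 0.436). RNA of Usp28, by which the gene was chosen, was 91.0%, 70.9% and 46.0% of the Control mean in MEF2A, MEF2D and MEF2AD cKO.

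The nearer site past Prune2 (chr19:17238569-17238779) had the largest MEF2AD difference of the 7. It measured 0.837, 1.13 and 0.572 RPM in MEF2AD cKO against 3.32, 2.77 and 3.11 RPM in Controls, 27.6% of the Control mean. The difference was -1.19 by TMM (log2, SE 0.20; edgeR adjusted p = 2.05e-06) and -1.69 per library total (SE 0.21; edgeR adjusted p = 1.55e-09). In MEF2D cKO it measured 1.72, 1.49 and 1.71 RPM against 3.01, 2.63 and 2.47 RPM, without overlap, and was called lower per library total (-0.71, SE 0.21; edgeR adjusted p = 0.00589) but not by TMM (-0.35, SE 0.21; edgeR adjusted p = 0.194). MEF2A cKO (2.66, 1.98 and 2.80 RPM) overlapped its Controls (2.54, 2.82 and 2.62 RPM). The MEF2AD effect lay below the MEF2A effect by -1.15 (TMM, SE 0.29; edgeR adjusted p = 0.00095) and below the MEF2D effect by -0.83 (TMM, SE 0.30; edgeR adjusted p = 0.114) or -0.98 (library totals, SE 0.30; edgeR adjusted p = 0.0394). The last call was lost when any of 9 single libraries of the 2 lines was left out (edgeR adjusted p = 0.0539 to 0.126), while by TMM the difference was called without MEF2AD cKO 2 (-1.15, SE 0.35; edgeR adjusted p = 0.0464). Without the shallow MEF2AD cKO 3 it was -0.76 by TMM (SE 0.29, edgeR adjusted p = 0.164). The farther site (chr19:17240566-17240992) measured 3.25, 2.53 and 1.31 RPM in MEF2AD cKO against 4.25, 4.37 and 4.72 RPM. It was lower per library total in MEF2AD cKO (-0.77, SE 0.17; edgeR adjusted p = 9.38e-05) and in MEF2D cKO (-0.57, SE 0.16; edgeR adjusted p = 0.0038), and in neither relative to other MEF2 sites (-0.27 and -0.21, SE 0.16 each; edgeR adjusted p = 0.140 and 0.291). Without MEF2AD cKO 1 the MEF2AD difference by TMM was -0.45 (SE 0.18; edgeR adjusted p = 0.0257). Without the shallow MEF2AD cKO 3, whose value was the lowest there and rests on 16 reads, it was -0.18 (SE 0.15, edgeR adjusted p = 0.294).

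At the Peak1 site (chr9:56290056-56290328) MEF2AD cKO measured 2.48, 1.69 and 0.327 RPM against 4.04, 4.21 and 3.57 RPM in Controls. The last knockout value rests on 4 reads of the shallow library, and the mean was 38.0% of Controls with it and 52.9% without it. The MEF2AD difference was -0.72 by TMM (log2, SE 0.20; edgeR adjusted p = 0.00169) and -1.22 per library total (SE 0.21; edgeR adjusted p = 2.48e-06). Without that library it was -0.56 (TMM, SE 0.17; edgeR adjusted p = 0.0037). MEF2D cKO measured 3.84, 3.04 and 3.16 RPM against 4.70, 4.01 and 3.77 RPM, and MEF2A cKO 4.14, 3.17 and 3.8 RPM against 3.89, 5.0 and 4.82 RPM. Both single knockouts overlapped their Controls and were not called by either scale (edgeR adjusted p from 0.227 to 0.882). The difference from the MEF2D effect (TMM -0.77, SE 0.28; edgeR adjusted p = 0.127) passed the threshold when MEF2AD cKO 1 was left out (-1.09, SE 0.29; edgeR adjusted p = 0.0257). Without the shallow MEF2AD cKO 3 it moved the other way and was not called (TMM -0.59, SE 0.24, edgeR adjusted p = 0.1995). The MEF2AD effect lay below the MEF2A effect per library total (-0.92, SE 0.29; edgeR adjusted p = 0.00893, and at most 0.0337 with any 1 library left out). By TMM that difference was -0.49 (SE 0.28; edgeR adjusted p = 0.142), and it was called without MEF2AD cKO 1 (-0.82, SE 0.29; edgeR adjusted p = 0.019). Without MEF2AD cKO 3 it was -0.33 by TMM (SE 0.23, edgeR adjusted p = 0.260). Both calls by TMM thus gave more weight to the shallow library. The means were 81.0% of Controls in MEF2A cKO and 80.5% in MEF2D cKO.

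At the Tll1 site (chr8:64152121-64152647) H3K27ac was called lower in no knockout by edgeR on either scale. Tll1 RNA in MEF2AD cKO was 43.4% of Controls. It measured 7.64, 9.08 and 7.60 RPM in MEF2AD cKO against 8.19, 7.44 and 5.98 RPM, with the groups overlapping. Per library total the difference was 0.14 (log2, SE 0.12; edgeR adjusted p = 0.308). Relative to other MEF2 sites it was higher in MEF2AD cKO (0.65, SE 0.12; edgeR adjusted p = 3.43e-06) and in MEF2D cKO (0.36, SE 0.12; edgeR adjusted p = 0.0181). In MEF2D cKO the value per library total was 0.00 (SE 0.12), and the call relative to other sites was lost without any 1 of 4 libraries of that line (edgeR adjusted p = 0.0642 to 0.0936). MEF2A cKO measured 8.28, 7.63 and 7.65 RPM against 8.97, 8.03 and 8.06 RPM, with the groups overlapping and a mean of 94.0% of Controls (library totals -0.095, SE 0.13; edgeR adjusted p = 0.843).

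The Lzts2 site and the site past Clic1 changed direction with the scale. The Lzts2 site (chr19:45016417-45016722) measured 8.37, 9.51 and 4.90 RPM in MEF2AD cKO against 10.1, 9.78 and 10.2 RPM in Controls, with the lowest value in the shallow library. Its MEF2AD difference was 0.21 by TMM (log2, SE 0.11; edgeR adjusted p = 0.0946) and -0.29 per library total (SE 0.12; edgeR adjusted p = 0.0351). Without MEF2AD cKO 3 these became 0.31 (SE 0.09; edgeR adjusted p = 0.0042) and -0.15 (SE 0.10; edgeR adjusted p = 0.206). The call per library total was also lost without any 1 of the 3 Controls (edgeR adjusted p = 0.0589 to 0.0979). In MEF2D cKO it was 0.40 by TMM (SE 0.12; edgeR adjusted p = 0.00833) and 0.04 per library total (SE 0.13; edgeR adjusted p = 0.848), and the first call was lost without MEF2D cKO 3 (edgeR adjusted p = 0.0565). The site past Clic1 (chr17:35070497-35071007) measured 8.27, 8.40 and 6.29 RPM in MEF2AD cKO against 9.60, 9.41 and 9.43 RPM, a difference of 0.25 by TMM (SE 0.10; edgeR adjusted p = 0.035) and -0.26 per library total (SE 0.11; edgeR adjusted p = 0.0331). The second call was lost without MEF2AD cKO 3 (-0.19, SE 0.10; edgeR adjusted p = 0.109) or either of Controls 1 and 2 (edgeR adjusted p = 0.0982 and 0.0678). The first was lost without any 1 of 6 libraries, namely MEF2AD Controls 1 to 3, MEF2AD cKO 1 and 2 and MEF2D cKO 1 (edgeR adjusted p = 0.0556 to 0.183). In MEF2D cKO it was 0.29 by TMM (SE 0.11; edgeR adjusted p = 0.0389) and -0.076 per library total (SE 0.11; edgeR adjusted p = 0.620), and the call by TMM was lost without any 1 of 4 libraries of the MEF2D line (edgeR adjusted p = 0.0722 to 0.153).

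**Figure D4:**
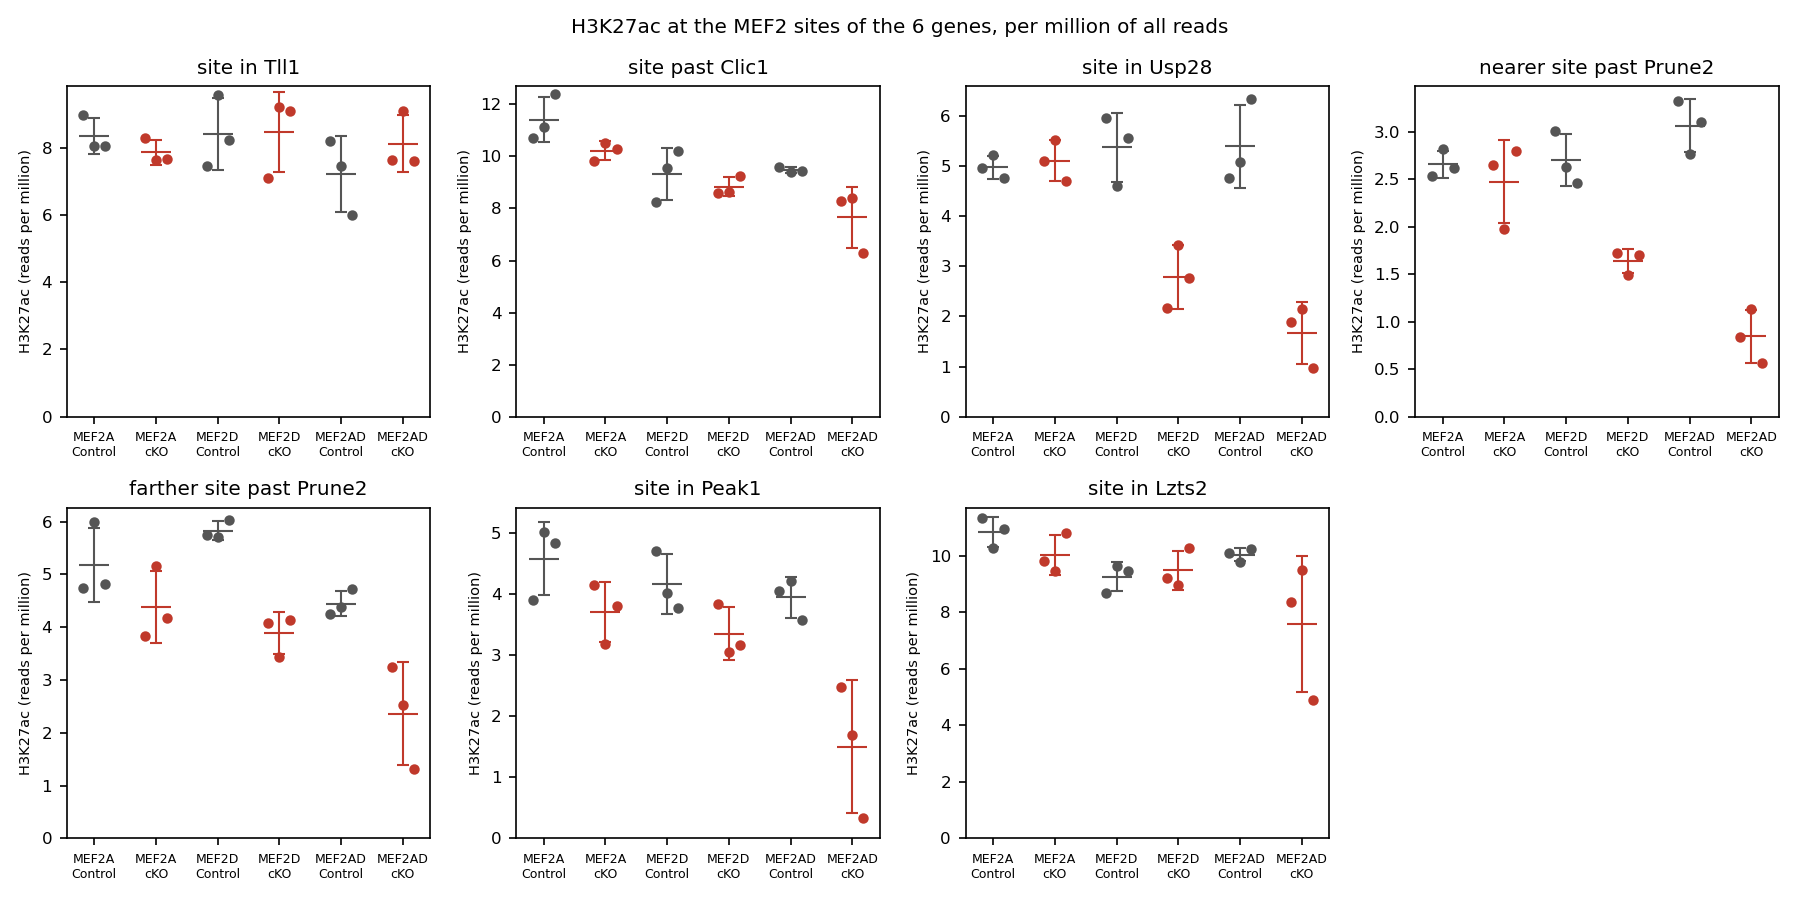
H3K27ac in RPM of the library total (vertical axis, from 0) at the 7 MEF2 sites of the members in 18 libraries, by line and genotype; points are libraries, bars give mean and SD of 3 (Control grey, cKO red). The 3 MEF2AD cKO points lie below their Controls at the sites of Usp28, Prune2, Peak1, Lzts2 and Clic1, while at the Tll1 site they reach from 7.60 to 9.08 and overlap the Controls.

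Counted over the 7 sites, 3 were called lower and 2 higher in MEF2AD cKO relative to other MEF2 sites, where 32.2% and 30.9% of the 1372 sites tested were. In MEF2D cKO 1 was lower and 3 were higher, against 20.0% and 14.7% of sites. Per library total, 6 of 7 were lower in MEF2AD cKO (54.9% of 1371 sites) and 3 of 7 in MEF2D cKO (41.2%). No site was called in MEF2A cKO by edgeR on either scale or by DESeq2, and 0 had an unadjusted p under 0.05. The MEF2AD effect lay below the MEF2A effect at 2 of 7 sites by TMM (26.0% of sites) and above it at 1 of 7 (19.4%), and below it at 3 of 7 per library total (41.1%). Compared with the MEF2D effect it was lower at 0 of 7 by TMM (2.84% of sites; 2 under an unadjusted 0.05, and 0 with DESeq2) and at 1 of 7 per library total (5.84%). These shares are close to the background or rest on few sites, and nothing particular to the members is read from them.

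**Figure D5:**
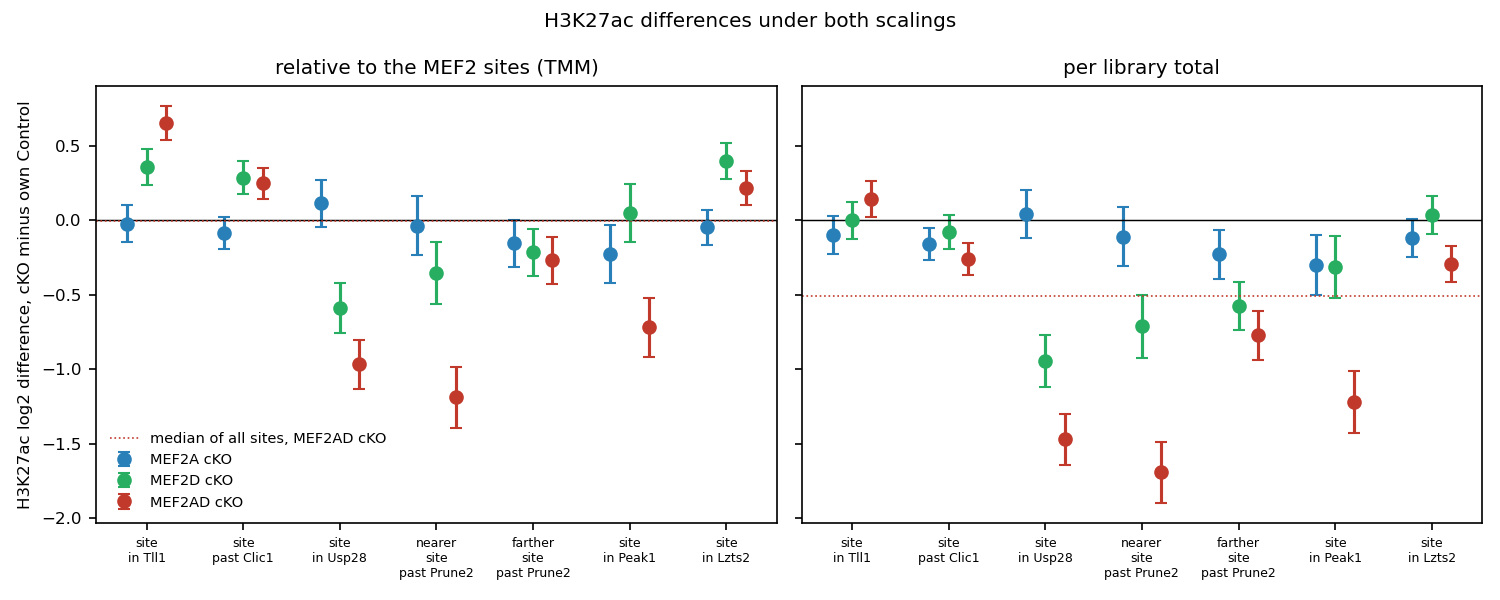
H3K27ac log2 difference between each knockout and its own Controls (vertical axis) at the 7 sites (horizontal axis), relative to other MEF2 sites on the left and per library total on the right; points are edgeR estimates, bars their SE, and the dotted line is the median of all sites in MEF2AD cKO (0.00 and -0.51). In MEF2AD cKO, Usp28, both Prune2 sites and Peak1 are below that line on both sides, and Tll1, Clic1 and Lzts2 are above it.

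Set beside the RNA, the sites fell into unlike patterns. Of the genes with MEF2D peaks alone, Usp28 and Prune2 had lower acetylation in MEF2AD cKO on both scales at 1 site each, while the site past Clic1 was higher by TMM and lower per library total. Of those with peaks of both factors, Peak1 was lower on both scales. Tll1 was higher by TMM and not called per library total, and Lzts2 was not called by TMM and lower per library total. Without the shallow MEF2AD cKO 3, Lzts2 was instead higher by TMM and not called per library total. The calls at the site past Clic1 were also lost on each scale without certain single libraries, as given above. In the authors' deposited table all 6 genes are in cluster 4 of the MEF2AD genes (112 of 305), a grouping made on these RNA values. The deposited list of MEF2-bound, rotarod-activated genes held 113 genes, beside 15469 in the RNA table, and 0 of 6 members. With so few genes listed, nothing is read from that absence.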

How the data were processed

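RNA-seq, H3K27ac ChIP-seq and MEF2 peak lists of mouse cerebellum were used as the authors deposited them. STAR 2.6, Bowtie2 2.3.4.2 and MACS2 were used with mm10, per the submitters' processing notes, with no role or order stated; 1 peak list per antibody was deposited. RNA was deposited by the authors as log2 CPM per library, per the file headers, from which reads were recovered as whole numbers (within 0.05 reads) at 100% of values. The table had 15560 entries, and 91 with a repeated identifier were left out. How reads were counted, with or without strand, and which filters applied is not given in the sources used here. On the recovered reads edgeR called 410 genes in MEF2AD cKO, 734 in MEF2D cKO and 35 in MEF2A cKO. H3K27ac values were deposited read counts per MEF2 site with library totals, without normalization. A further 136 numeric columns were not used.

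RNA was fitted over all genes with limma-trend 3.58.1 in R 4.3.3 on log2(CPM + 1), a scale that understates the change of low genes, with 6 group means and no filter. H3K27ac counts were fitted with edgeR 4.0.16 (quasi-likelihood, TMM, filterByExpr) over all sites. p-values were adjusted by Benjamini-Hochberg at 0.05, and fits were tested on simulated data. Nothing says whether replicates were separate mice, so p-values measure the spread between libraries. The genes shown, their lists and their sites were chosen with earlier results of these data known. Named genes were the 6, the MEF2 genes, called relatives, the 6 most alike profiles and the neighbours in the order. Groups came from the sample titles. Genes were placed by Entrez identifier (13660) or symbol (1181) in RefSeq, and 628 had no position. Same-numbered RNA libraries deviated together in the MEF2A line (r from 0.20 to 0.50). At a cut-off of r = 0.1 for every pair, no other line or assay passed. In RNA r was 0.065 to 0.31 in the MEF2D line and -0.20 to 0.25 in the MEF2AD line. In H3K27ac it was 0.096 to 0.17 (MEF2A), 0.01 to 0.11 (MEF2D) and 0.01 to 0.13 (MEF2AD), so weaker pairing may remain there. The replicate block is therefore given as an alternative. Alternatives covered pseudocount, filters, DESeq2 1.42.0, scaling, replicate block and leaving out each library.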

Additional observations from a re-analysis of the deposited data

Results flagged for a closer look

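Clic1 in MEF2A Control 1 (31.8 CPM) stood apart from the other 3 Controls of that group, which lay between 22.6 and 24 CPM; this kind of gap arises by chance in about 1 of 20 groups. With that library left out, Clic1 in MEF2A cKO was 0.76 above Controls (log2), against 0.65 with it.

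At 3 sites of the members the H3K27ac effect of the MEF2AD knockout differed from that of the MEF2A knockout, tested directly with edgeR. The difference was -1.08 (log2) at the Usp28 site, -1.15 at the nearer site past Prune2, and 0.67 at the Tll1 site. Of all 1372 sites tested by TMM, 26.0% were lower and 19.4% higher in that comparison, so nothing particular to the members is read from this. At the Tll1 site the value per library total was 0.24 (edgeR adjusted p = 0.285), so that call belongs to the scale relative to other MEF2 sites.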

How the results depend on the processing

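With another pseudocount, edgeR or DESeq2 on recovered reads, the replicate block or each library left out, the RNA differences of the 6 genes kept their direction, except Tll1 in MEF2A cKO (-0.0092), which ranged from -0.091 to 0.060 and was above 0 without MEF2A Control 1, Control 3 or cKO 2. Over all genes, limma called 85 for MEF2AD against MEF2A and 16 for MEF2AD against MEF2D, where DESeq2 called 137 and 56. Among the 46 relatives, MEF2D cKO had 1 call, 3 with the replicate block and 0 to 1 with a library left out. MEF2AD cKO had 0 calls, 2 with DESeq2, 1 with edgeR, 3 with the replicate block and 0 to 1 with a library left out. Of the 1372 H3K27ac sites, MEF2A cKO had 1 call, 0 with DESeq2 or library totals, 5 with the replicate block and 0 to 12 with a library left out. The MEF2AD and MEF2D effects differed at 42 sites, 26 with DESeq2, 80 with library totals, 82 with library totals and the replicate block, and 13 to 53 with a library left out. Left-out ranges were 355 to 530 sites for MEF2D cKO (475 with all), 741 to 868 for MEF2AD cKO (866) and 541 to 641 for MEF2AD against MEF2A (623). The site past Clic1 reversed under library totals, without and with the block, to -0.076 and -0.078 in MEF2D cKO and to -0.26 and -0.25 in MEF2AD cKO (log2), and the Lzts2 site to -0.29 and -0.29 in MEF2AD cKO. This follows from the shift of the median site between the scales. Of the 6 most alike genes, 2 were shared with Spearman's correlation. Among the 46 relatives in the MEF2A line, where numbers pair the RNA libraries, the block gave 0 calls, as without it. The library totals combined with the block or with left-out libraries were chosen after seeing the data. Depth limits the shallow MEF2AD libraries most, where a member's site rests on as few as 4 reads.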
